A study of Homo sapiens with 18 samples.

Results

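The RNA and DNA methylation of 10 genes of cellular iron handling were described: TFRC, TFR2, STEAP3, SLC11A2, SLC40A1, FTH1, FTL, IREB2, ACO1 and FBXL5. They were chosen by symbol, and all 10 were found among the 55766 entries of the RNA count table. All samples were K562 cells, an established human erythroleukaemia line, carrying a B2M:tdTomato transgene, in which the gene of the MHC class I light chain is joined to a red fluorescent reporter. The 3 groups were untreated cells, cells silenced with TALE and cells silenced with dCas9, both programmable DNA-binding proteins. Silenced cells had been given 3 plasmids, each for another repressor and 1 of them D3A-based, and the dCas9 cells a further plasmid for the guide RNA. RNA-seq and MeDIP-seq, which sequences DNA captured with an antibody against 5-methylcytosine, each had 3 samples a group, 18 samples in all. Whether replicates were separate cultures, and how long after treatment the cells were collected, is not given in the sources used here, so p-values measure only the spread between these samples.

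Cells take up iron as transferrin bound to a receptor at the surface, release and reduce it inside endosomes, and move it to the cytosol. Iron that is not used is stored in ferritin or exported. Iron regulatory proteins bind a hairpin in mRNA, the iron-responsive element, when iron is scarce: binding in a 5′ UTR blocks translation and binding in a 3′ UTR protects the mRNA from decay. Erythroid cells take up large amounts of iron for haem, so the transferrin receptor is one of their best known surface proteins.

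The iron-responsive elements found in these mRNAs are shown because they are the letters that the iron regulatory proteins are known to bind. Transcripts on GRCh37 were searched on the sense strand for a bulged C, 5 stem bases, the loop CAGTGN and 5 bases that pair with the stem, with G-T pairs allowed. The pattern was found in the canonical transcript of 4 of the 10 genes, against 255 of 19528 canonical protein-coding transcripts (1.31%). TFRC held 4 matches in its 3′ UTR, and FTH1, FTL and SLC40A1 held 1 each in the 5′ UTR. The SLC40A1 match was in 1 of 5 coding transcripts, the canonical one. Each sequence is 29 bases of the reference in the direction of the mRNA, with the first 5 bases of the loop in capitals. A match is a description of the letters and no measurement of binding. SLC11A2 is known for a transcript form with an element in its 3′ UTR, and this pattern matched none of its coding transcripts.
TFRC, 3′ UTR, chr3:195777850-195777878, minus strand: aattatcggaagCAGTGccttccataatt
TFRC, 3′ UTR, chr3:195777446-195777474, minus strand: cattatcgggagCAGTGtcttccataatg
TFRC, 3′ UTR, chr3:195777381-195777409, minus strand: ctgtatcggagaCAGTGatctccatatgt
TFRC, 3′ UTR, chr3:195777334-195777362, minus strand: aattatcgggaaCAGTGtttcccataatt
FTH1, 5′ UTR, chr11:61735046-61735074, minus strand: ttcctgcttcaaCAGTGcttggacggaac
FTL, 5′ UTR, chr19:49468592-49468620, plus strand: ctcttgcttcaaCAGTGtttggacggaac
SLC40A1, 5′ UTR, chr2:190445387-190445415, minus strand: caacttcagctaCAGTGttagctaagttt

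RNA libraries held 8460076 to 12050554 counts and MeDIP libraries 2529729 to 4492751. The targeted gene followed the labels: the entry B2M_tomato had a mean of 379 CPM (counts scaled to a common library size by TMM) in untreated, 15.1 in TALE and 16.3 in dCas9 libraries. All 10 erythroleukaemia markers were measured, and together they reached 7646 to 8262 CPM in untreated, 6005 to 9754 in TALE and 6141 to 9402 in dCas9 libraries. Among markers of lineages the culture should lack, CD3D lay at 14.8 to 29.6 CPM and LYZ at 14.6 to 26.7 CPM. The other T cell and monocyte or macrophage markers, CD3E, CD2, CD14, CD68 and CSF1R, stayed at or below 0.726 CPM. Of the fibroblast markers, COL1A2 lay at 3.83 to 8.81 CPM and COL1A1 at 0.989 to 3.15 CPM. The epithelial genes EPCAM, KRT8 and KRT18, all 3 measured, summed to 436 to 487 CPM in untreated, 448 to 558 in TALE and 505 to 511 in dCas9 libraries. The part of these levels in the results below was not tested.

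The 2 ferritin genes stood highest, followed by TFRC, when levels were set per kilobase of the canonical transcript. FTL, the ferritin light chain, averaged 5156 CPM per kb over the 9 libraries and ranked 13 of 10154 genes with a length. FTH1, the ferritin heavy chain that oxidises iron as it enters the shell, averaged 676 CPM per kb and ranked 67. TFRC, the transferrin receptor, averaged 155 CPM per kb and ranked 341. The next genes were IREB2 at 25 CPM per kb, TFR2 at 20.2, SLC40A1 at 11.7 and SLC11A2 at 11.1. FBXL5 at 7.45, ACO1 at 6.06 and STEAP3 at 5.35 CPM per kb came last. In this order the ranges of neighbours over the 9 libraries overlapped for IREB2 and TFR2, SLC40A1 and SLC11A2, FBXL5 and ACO1, and ACO1 and STEAP3. All other neighbours were apart in range, so the order of the storage genes and TFRC above the rest held in every library.

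**Figure D1:**
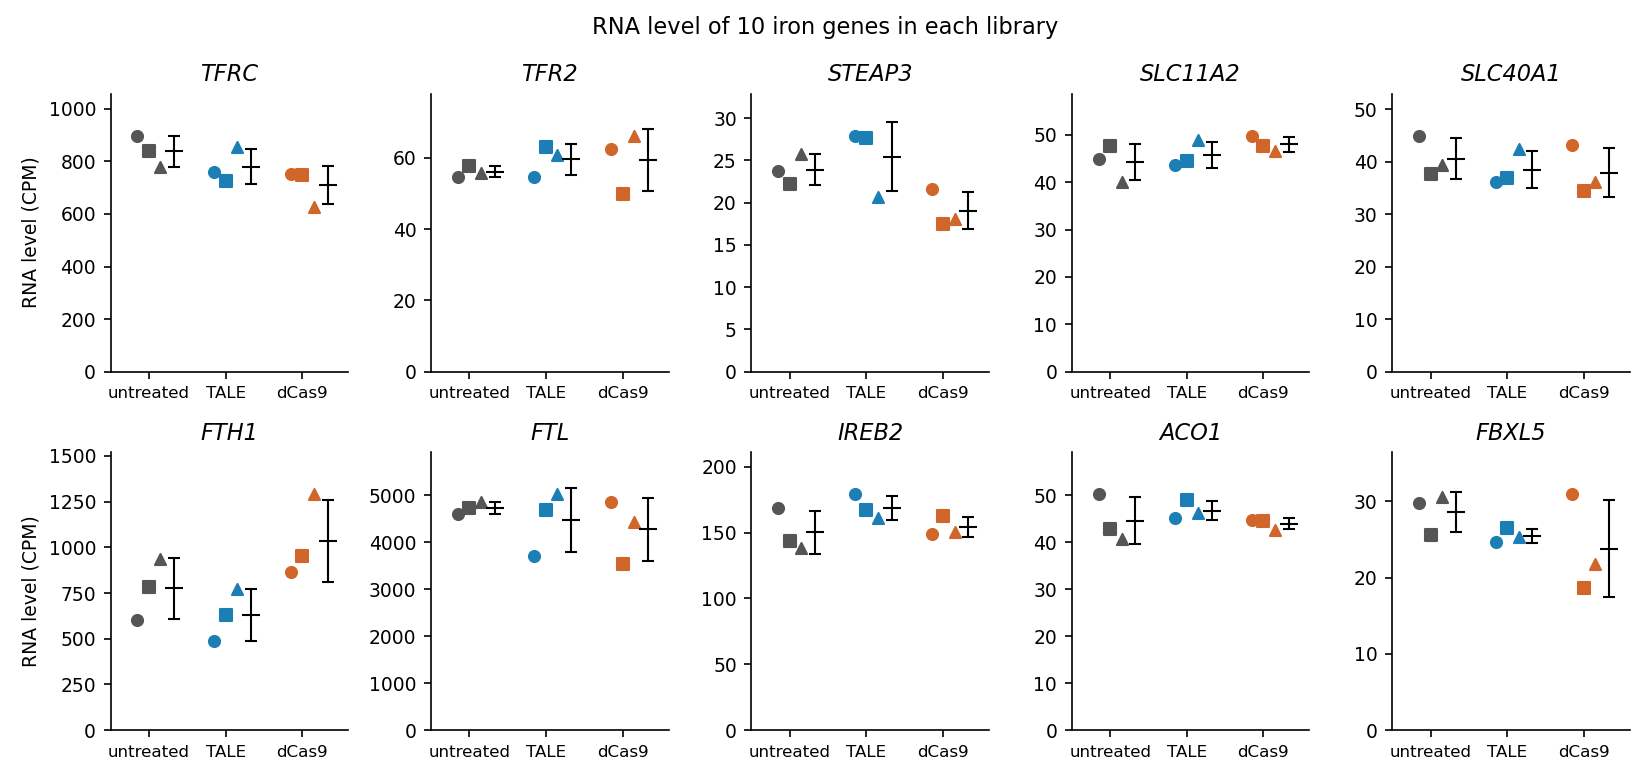
RNA level (CPM, linear axes from 0) of each gene in the 9 libraries; circles, squares and triangles are replicates 1, 2 and 3, and bars are the mean and SD of 3 libraries. FTH1 is the gene whose TALE values (485 to 771) lie farthest below its dCas9 values (864 to 1289); most other groups overlap.

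None of the 10 genes passed the test in any comparison, and all 10 were among the 13786 genes tested. In TALE against untreated cells 0 of 10 were called at an adjusted p under 0.05 (edgeR quasi-likelihood test, Benjamini-Hochberg over all genes), with 0.0218% of all genes called. In dCas9 against untreated cells 0 of 10 were called against 0.029% of all genes. In TALE against dCas9 cells 0 of 10 were called against 0%. For the silenced cells, taken as the mean of both silenced groups, 0 of 10 were called against 0.0363%. DESeq2 called 0 of the 10 in these comparisons.

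At an unadjusted p under 0.05 the counts were also small. They were 0 of 10 for TALE against untreated, where 7.15% of all genes passed, and 2 for dCas9 against untreated (FTH1 and STEAP3), where 5.93% passed. TALE against dCas9 gave 2 (FTH1 and STEAP3) against 6.38%, and silenced against untreated gave 0 against 6.35%. Values of the groups compared did not overlap for 0 of 10 genes in TALE against untreated (12.5% of all genes) and for TFRC and STEAP3 in dCas9 against untreated (11.6%). They did not overlap for FTH1 and ACO1 in TALE against dCas9 (9.38%), and for 0 genes in silenced against untreated (3.54%). The median log2 fold change of the 10 genes was -0.02, -0.06, 0.08 and -0.03 in these comparisons in turn, beside 0.0024, -0.0031, 0.0017 and 0.00048 over all genes tested. With 10 genes a share of 2 is too coarse to set apart from these backgrounds. The comparisons against untreated share the untreated libraries, and TALE against dCas9 shares the silenced libraries with them. FTH1 and STEAP3 in 2 comparisons are therefore not separate evidence.

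**Figure D2:**
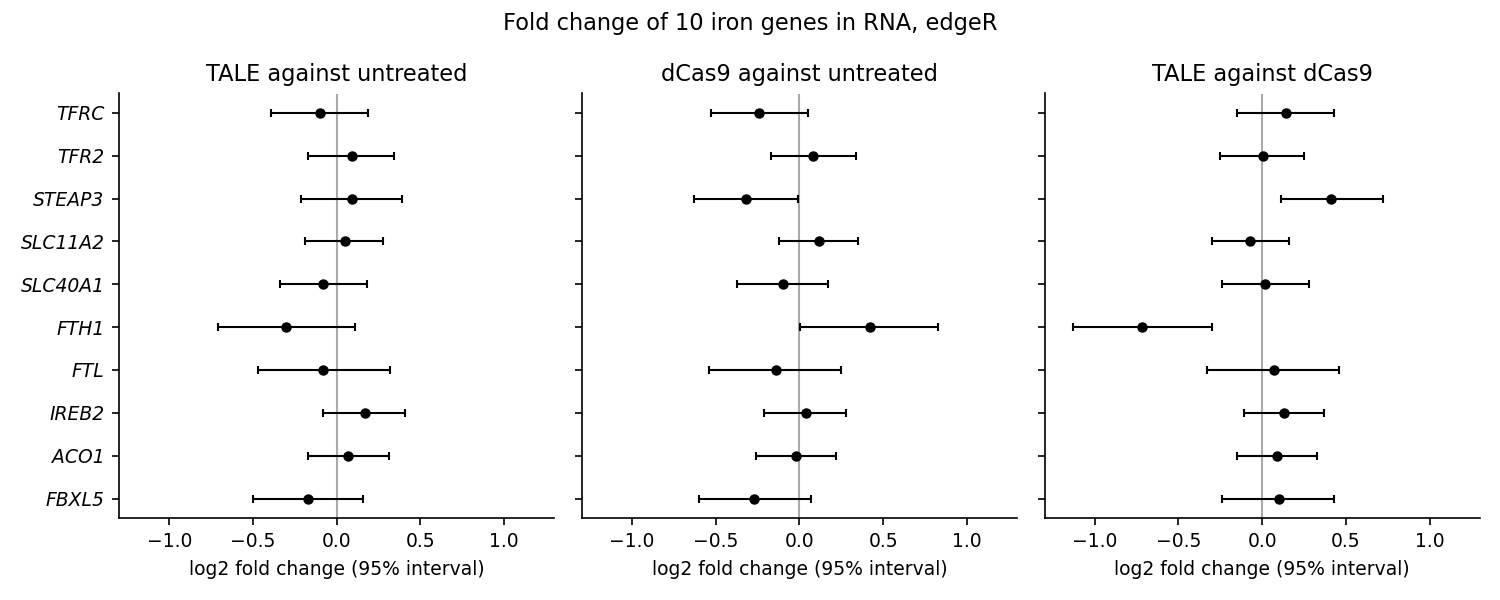
log2 fold change of each gene with its 95% interval (edgeR) for TALE against untreated, dCas9 against untreated and TALE against dCas9. Point estimates span -0.72 to 0.42, and the widest departure is FTH1 in TALE against dCas9.

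The uptake genes begin with TFRC (chr3:195739382-195809024, minus strand), which carries transferrin-bound iron into the cell. Its level was 897, 839.5 and 778 CPM in the untreated libraries, 761, 727 and 853 in the TALE libraries, and 753, 749.8 and 627 in the dCas9 libraries. The dCas9 values all lay below the untreated values, while the TALE values overlapped both. The log2 fold change of dCas9 against untreated was -0.24 (SE 0.138, 95% interval -0.53 to 0.05, edgeR adjusted p 0.902), and an exact two-sided permutation test gave p = 0.1, the smallest that 3 against 3 allows. TALE against untreated gave -0.10 (-0.39 to 0.19) and TALE against dCas9 0.14 (-0.15 to 0.43). In bulk RNA, fewer cells of a kind and less RNA per cell cannot be told apart.

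TFR2 (chr7:100218039-100240402, minus strand) codes for the second transferrin receptor, which takes part in iron sensing in liver and erythroid cells. It was measured at 54.7, 57.7 and 55.8 CPM in untreated, 54.7, 63 and 60.8 in TALE, and 62.3, 49.7 and 66.1 in dCas9 libraries. All groups overlapped. Its log2 fold change was 0.09 (-0.17 to 0.34) for TALE and 0.08 (-0.17 to 0.34) for dCas9 against untreated.

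STEAP3 (chr2:119981407-120023228, plus strand) codes for the endosomal ferrireductase that turns ferric into ferrous iron. Its level was 23.7, 22.2 and 25.8 CPM in untreated, 27.9, 27.7 and 20.7 in TALE, and 21.6, 17.5 and 18.1 in dCas9 libraries. Each dCas9 value lay below each untreated value, and the third TALE library lay among the lower values. The log2 fold change was -0.32 (SE 0.147, -0.63 to -0.01, edgeR p 0.0418, adjusted p 0.827) for dCas9 against untreated. It was 0.41 (SE 0.145, 0.11 to 0.72, edgeR p 0.0105, adjusted p 0.687) for TALE against dCas9. STEAP3 was the lowest of the 10 per kilobase, and these differences correspond to means of 23.9 ± 1.78, 25.4 ± 4.07 and 19.1 ± 2.2 CPM (SD, n = 3) in untreated, TALE and dCas9 cells.

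SLC11A2 (chr12:51373184-51422349, minus strand) codes for DMT1, which moves ferrous iron across the endosomal membrane. Values were 44.9, 47.7 and 40.1 CPM in untreated, 43.7, 44.6 and 48.9 in TALE, and 49.8, 47.7 and 46.6 in dCas9 libraries. The groups overlapped in all comparisons, with log2 fold changes of 0.05 (-0.19 to 0.28) for TALE and 0.12 (-0.12 to 0.35) for dCas9 against untreated. SLC40A1 (chr2:190425316-190448484, minus strand) codes for ferroportin, the known cellular iron exporter. It was at 44.9, 37.6 and 39.3 CPM in untreated, 36.2, 36.8 and 42.5 in TALE, and 43.2, 34.4 and 36.2 in dCas9 libraries. These groups overlapped too, with log2 fold changes of -0.08 (-0.34 to 0.18) and -0.10 (-0.37 to 0.17).

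Storage rested on FTH1 and FTL. FTH1 (chr11:61727190-61735106, minus strand) was at 605, 785 and 934 CPM in untreated, 485, 632 and 771 in TALE, and 864, 950.3 and 1289 in dCas9 libraries. Every dCas9 value was above every TALE value, and the untreated values overlapped both. In each group FTH1 rose from replicate 1 to replicate 3, and what the replicate number marks is not given in the sources used here. The log2 fold change of TALE against dCas9 was -0.72 (SE 0.197, -1.13 to -0.30, edgeR p 0.00195, adjusted p 0.511), the greatest among the 10 genes, and an exact permutation test gave p = 0.1. Against untreated, FTH1 gave -0.30 (-0.71 to 0.11, edgeR adjusted p 0.788) in TALE and 0.42 (0.004 to 0.83, edgeR p 0.0481, adjusted p 0.837) in dCas9 cells. Leaving out 1 library at a time moved these to between -0.47 and -0.14 and to between 0.23 (without dCas9 replicate 3) and 0.57. The within-group coefficient of variation of FTH1 was 22.3%, at percentile 74.9 of all genes tested, against 12.4% for FTL and 8.45% for TFRC. The call of FTH1 in TALE against dCas9 depended on the filter: without the filter on low counts it was -0.70 at an edgeR adjusted p of 0.00184, in a fit that called 77 genes instead of 0. No other alternative run called it, and the lowest edgeR adjusted p among them was 0.0819, without TALE replicate 3.

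FTL (chr19:49468566-49470136, plus strand) was at 4603, 4719.9 and 4854 CPM in untreated, 3711, 4688 and 5017 in TALE, and 4855, 3535 and 4433 in dCas9 libraries. The lowest values were the first TALE library and the second dCas9 library, and the groups overlapped throughout. Its log2 fold changes were -0.08 (-0.47 to 0.32) for TALE and -0.14 (-0.54 to 0.25) for dCas9 against untreated. Ferritin genes have near-identical processed copies, and reads could be split among them. The table has 25 entries named FTH1P, 16 with counts, that held 7.33 to 18.3% of the counts of FTH1 and its copies per library, and 16 entries named FTLP, 9 with counts, that held 2.12 to 4.87% of those of FTL and its copies. The copies with most counts were FTH1P20 (281 to 449 counts) and FTLP3 (736 to 3081 counts). With copies summed into FTH1, TALE against dCas9 was -0.62 (edgeR adjusted p 0.542). FTH1P20, the copy with most counts, was itself at 0.14 (edgeR adjusted p 0.871) in that comparison, and FTH1P10 at 0.21 (edgeR adjusted p 0.858). For dCas9 against untreated, FTH1P10 was at -0.51 (edgeR p 0.00397, adjusted p 0.475), where FTH1 was at 0.42. FTH1P20 was at -0.15 (edgeR p 0.232, adjusted p 0.962) there. For TALE against untreated both FTH1P10 and FTH1 were at -0.30, and FTH1P20 was at -0.01. The other FTH1 copies are not given singly, so FTH1P10 does not stand for them. FTLP3 was at -0.56 (edgeR p 0.0274, adjusted p 0.744) for dCas9 against untreated. It was at 0.46 (edgeR adjusted p 0.795) for TALE against dCas9. How reads were shared between FTH1 and its copies was not tested.

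A ratio of 2 genes in the same library needs no scaling between libraries. FTL per FTH1 counts was 7.61, 6.01 and 5.2 in untreated, 7.65, 7.42 and 6.5 in TALE, and 5.62, 3.72 and 3.44 in dCas9 libraries. The TALE ratios all exceeded the dCas9 ratios, a log2 difference of 0.79 (exact permutation p = 0.1, the smallest possible). TFRC per FTH1 was 1.48, 1.07 and 0.833 in untreated, 1.57, 1.15 and 1.11 in TALE, and 0.871, 0.789 and 0.486 in dCas9 libraries, a log2 difference of 0.86 between TALE and dCas9 (exact permutation p = 0.1). The ratios of dCas9 and untreated libraries overlapped, with exact permutation p = 0.2 for both. Both ratios fell from replicate 1 to replicate 3 in each group. FTH1 is the shared part of both ratios, so they restate its difference and are not separate evidence.

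**Figure D3:**
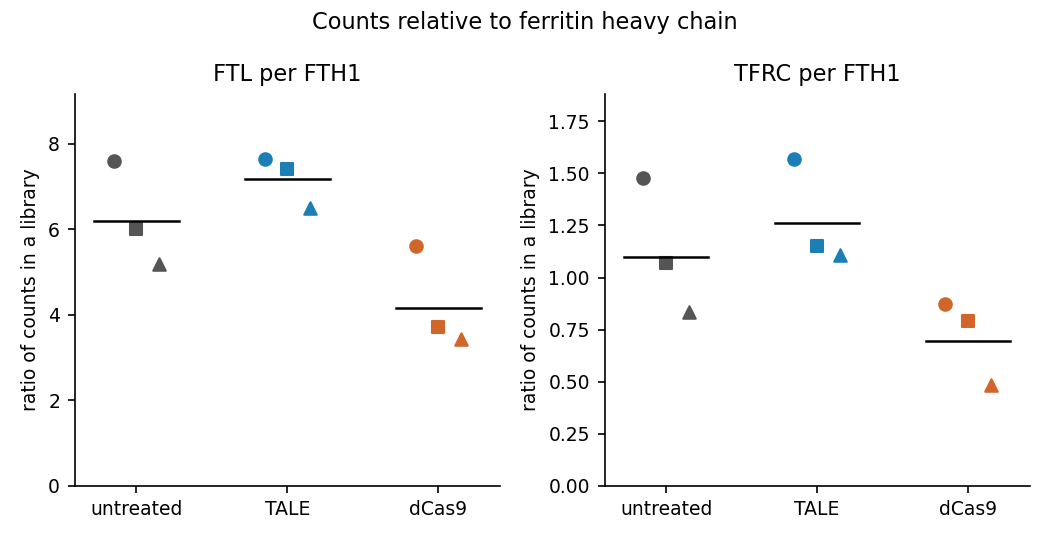
Counts of FTL (left) and TFRC (right) per count of FTH1 in each library on linear axes from 0; symbols are replicates and bars the geometric mean of 3 libraries. The TALE ratios (6.5 to 7.65 and 1.11 to 1.57) lie above the dCas9 ratios (3.44 to 5.62 and 0.486 to 0.871).

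Of the 3 sensors, IREB2 and ACO1 varied little between replicates and FBXL5 more, with within-group coefficients of variation of 7.31, 7.07 and 15.3%. IREB2 (chr15:78729773-78793795, plus strand), the iron regulatory protein that is degraded when iron is ample, was at 169, 144 and 138 CPM in untreated, 179, 167 and 161 in TALE, and 149, 163 and 150.5 in dCas9 libraries. The TALE libraries overlapped both other groups, with log2 fold changes of 0.17 (-0.08 to 0.41) for TALE and 0.04 (-0.21 to 0.28) for dCas9 against untreated. ACO1 (chr9:32384601-32454767, plus strand), the cytosolic aconitase that becomes an iron regulatory protein without its cluster, was at 50.2, 42.8 and 40.7 CPM in untreated, 45.1, 49 and 46.2 in TALE, and 44.7, 44.5 and 42.6 in dCas9 libraries. The TALE values of ACO1 lay above the dCas9 values by a log2 difference of 0.09 (-0.15 to 0.33, edgeR adjusted p 0.916, exact permutation p = 0.1). FBXL5 (chr4:15606004-15683302, minus strand), the ubiquitin ligase subunit that recognises IREB2 protein, was at 29.8, 25.6 and 30.5 CPM in untreated, 24.7, 26.5 and 25.3 in TALE, and 30.9, 18.7 and 21.8 in dCas9 libraries. The first dCas9 library stood above the others of its group. The log2 fold change of dCas9 against untreated was -0.27 (edgeR adjusted p 0.904), and leaving out 1 library at a time moved it to between -0.50 and -0.12. It was -0.50 (edgeR adjusted p 0.212) without dCas9 replicate 1, -0.12 (edgeR p 0.448) without dCas9 replicate 2 and -0.21 without dCas9 replicate 3.

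The other genes of the pathway came from 4 lists with 56 genes, of which 45 were tested and 11 had too few counts, transferrin (TF, 2 to 11 counts) and haem oxygenase 1 (HMOX1, 0 to 3 counts) among them. In every comparison 0 of 45 were called in either direction by edgeR, and 0 by DESeq2. Of all genes tested, edgeR called 0.0218, 0.029, 0 and 0.0363% for TALE, dCas9, TALE against dCas9 and silenced. At an unadjusted p under 0.05 the numbers of the 45 were 1, 0, 1 and 0 in these comparisons in turn. The shares of all genes tested were 7.15, 5.93, 6.38 and 6.35%. By list, 8 of 12 genes of the transferrin cycle and mitochondrial import, 10 of 16 of ferritin handling and export, 11 of 11 sensing partners and other mRNAs with the element, and 16 of 17 of iron-sulphur cluster assembly were tested. For the transferrin cycle list the median log2 fold change was 0.14 in TALE and -0.03 in dCas9 against untreated. For iron-sulphur assembly it was -0.05 and 0.0037.

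Genes at the ends of these lists were named by the size of their change. In TALE against untreated, HSPA9, the mitochondrial chaperone of cluster transfer, was at 0.28 (SE 0.136, edgeR adjusted p 0.711) and CISD1, a mitochondrial outer membrane cluster protein, at 0.28 (SE 0.135). SLC25A37, the mitochondrial iron importer mitoferrin, was at -0.24 (SE 0.126) and ISCA2, a late cluster assembly factor, at -0.22 (SE 0.216). In dCas9 against untreated, CDC42BPA, whose mRNA carries the element, was at 0.19 and CYBRD1, a ferric reductase, at 0.17, with ISCA2 at -0.23 and the cysteine desulphurase NFS1 at -0.22. In TALE against dCas9, SLC39A14, a metal importer, was at 0.32, HSPA9 at 0.28, SLC25A37 at -0.24, and SKP1, a ligase subunit that joins FBXL5, at -0.20. Of these the groups of HSPA9 and SLC25A37 did not overlap in TALE against dCas9, where 9.38% of all genes did not. For the silenced cells, HMOX2, a haem oxygenase, was at 0.20 and CISD1 at 0.20, with ISCA2 at -0.23 and NFS1 at -0.16. The groups of HMOX2 did not overlap (29.6 ± 3.31 CPM in 6 silenced against 25.6 ± 1.61 in 3 untreated libraries, SD), as for 3.54% of all genes. HSPA9, SLC25A37 and HMOX2 were named for the size of their change, which favours a gap between groups. The shares of all genes are therefore no like background for them.

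Genes with a pattern over the 9 libraries close to that of TFRC included CCDC50 and COQ3, with root-mean-square differences of centred log2 CPM of 0.0478 and 0.0558 among 8655 genes compared. The closest to FTH1 were TMSB4XP8, CD52 and RP11-197K6.1 at 0.141, 0.161 and 0.163. The 2 sets are on unlike scales: TFRC itself had a root-mean-square spread of 0.143 and a median difference of 0.207 from the genes compared. For FTH1 these were 0.393 and 0.434. These likenesses are descriptions over the same 9 libraries, in each of which all genes share 1 depth and 1 scaling.

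DNA methylation was read from the count table of MeDIP regions on hg19, the sequence of GRCh37. It listed 91 regions in or within 2 kb upstream of 8 of the genes and none for FTH1 or FTL, and 48 of the 91 had enough counts to test. Regions of IREB2 (18), ACO1 (16), FBXL5 (16) and STEAP3 (14) were most numerous, and most of the listed regions lay in introns. Of these 4 genes 10, 1, 10 and 5 regions were tested in turn, and of the 3 SLC40A1 regions 0. A region within 2 kb of the canonical start was listed for 2 of the 10 genes, SLC11A2 and IREB2, against 42.7% of 19528 canonical protein-coding starts. RefSeq promoters (GRCh38.p14, 8 of the 10 genes matched) held 37 CpG in TFRC, 47 in SLC40A1, 36 in ACO1, 36 in STEAP3, 42 in FBXL5 and 23 in FTL, against a median of 14 per promoter of the table. SLC11A2 and IREB2 had several annotated promoters, with 28, 5, 5 and 4 CpG and with 32 and 26 CpG.

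The SLC11A2 region lies 668 bp upstream of the canonical start, within the span of longer annotated transcripts and over no annotated exon. The IREB2 region, of 258 bases with 3 CpG, lies upstream of the gene and also overlaps no annotated exon. Its sequence is shown as that of a region near a start with few CpG, which are in capitals, read on the plus strand of GRCh37.
IREB2, chr15:78728824-78729081: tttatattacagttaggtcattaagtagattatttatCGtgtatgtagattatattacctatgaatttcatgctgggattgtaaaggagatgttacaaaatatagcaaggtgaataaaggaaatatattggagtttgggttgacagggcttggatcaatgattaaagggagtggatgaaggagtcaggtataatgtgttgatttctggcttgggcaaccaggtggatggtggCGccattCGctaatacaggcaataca

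The SLC11A2 region gave 7.37, 7.64 and 8.1 CPM in untreated, 10.2, 10.6 and 11 in TALE, and 11.5, 13.8 and 10.4 in dCas9 libraries, from 18 to 53 counts each. All silenced libraries lay above all untreated libraries. The share of all regions whose groups do not overlap was not computed, so this gap cannot be set against it. The log2 fold change was 0.46 for TALE (edgeR p 0.131), 0.64 for dCas9 (SE 0.296, edgeR p 0.034) and 0.55 for both together (SE 0.263, edgeR p 0.0394), and the adjusted p was 1 in each. SLC11A2 RNA, given above, did not pass the test either. The authors' peak lists, called per sample, hold a peak here in all 9 libraries, with the authors' fold enrichment between 1.81 and 5.39. The IREB2 region had 0 to 8 counts and was not tested, and the deposited lists hold a peak over it in 7 of the 9 libraries. Deposited lists of 2 TALE and 2 untreated libraries also hold a peak upstream of TFRC and within 2 kb of its start, for which the count table lists no region.

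Over the 48 tested regions, 0 were called in any comparison (edgeR, Benjamini-Hochberg over 105652 regions). The share of all regions called was 0% in TALE and 0.000947% in dCas9 cells, each against untreated, 0.000947% between the silenced groups, and 0% with the mean of both silenced groups. At an unadjusted p under 0.05 the 48 regions gave 0 against 4.74% of all regions for TALE, 3 against 4.69% for dCas9, 2 against 4.47% for TALE against dCas9 and 2 against 4.88% for silenced. The median log2 fold changes of the 48 were 0.10, 0.09, -0.07 and -0.02, beside -0.00088, 0.00063, -0.0019 and -0.01 over all regions. Beside the SLC11A2 region, an intronic ACO1 region (chr9:32392419-32393935) had 2.49 ± 0.789 CPM in dCas9 against 6.1 ± 1.51 in untreated cells (SD, n = 3), a log2 fold change of -1.27 (SE 0.484, edgeR p 0.0103, adjusted p 1). For silenced against untreated the same region was at -1.06 (edgeR p 0.00903). It was the only ACO1 region tested, out of 16, and held 4 to 25 counts per library. A TFRC region outside the canonical transcript (chr3:195773847-195774939) was at 0.80 for dCas9 against untreated (edgeR p 0.0309), and 0.28 without dCas9 replicate 1. In TALE against dCas9, a TFRC region, also outside the canonical transcript (chr3:195755748-195756041), was at 1.03 (edgeR p 0.0196). An intronic TFR2 region (chr7:100234683-100235869) was at -0.43 (edgeR p 0.0157) in that comparison, each with an adjusted p of 1. These 5 regions were picked out for their unadjusted p and none of their adjusted p values passed the threshold.

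**Figure D4:**
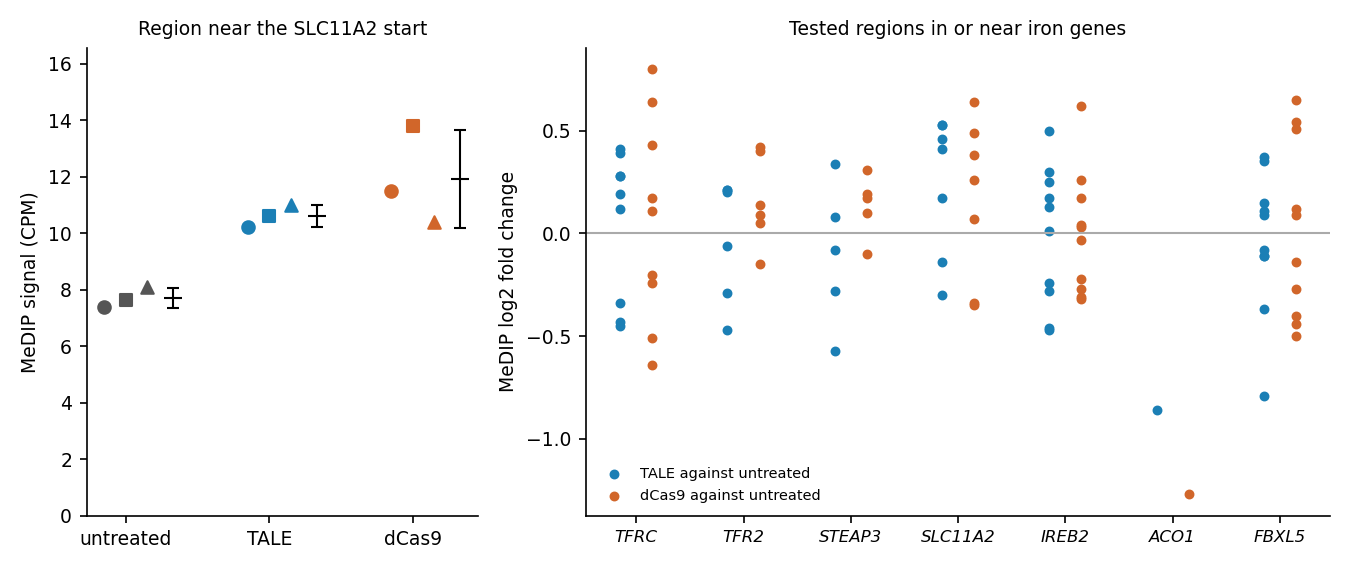
Left, MeDIP signal (CPM, from 0) of the SLC11A2 region in each library with mean and SD of 3 libraries. Right, log2 fold change against untreated of each tested region by gene. The SLC11A2 untreated values (7.37 to 8.1) lie below all silenced values (10.2 to 13.8), and the share of all regions with such a gap was not computed. The lowest point at the right is the intronic ACO1 region (-1.27 in dCas9).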

How the data were processed

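The 9 RNA and 9 MeDIP libraries were analysed from the authors' deposited count tables, which hold raw counts per gene symbol and per region. The submitters' processing notes name STAR 2.3.0 and hg19 for RNA, and BWA 0.7.5, Picard, MACS2, bedtools and hg19 for MeDIP. The counter, annotation, strand use and rule for reads with several matches are not given in the sources used here. Per the labels' protocols, cDNA was made with an amplification kit intended for degraded RNA, and MeDIP libraries were pooled before capture. The deposited peak lists give the authors' fold enrichment per peak, a ratio, used only to describe peaks. Counts were fitted with edgeR 4.0.16 (R 4.3.3; TMM factors, filterByExpr with a minimum count of 10, quasi-likelihood test, group means, 6 residual degrees of freedom), with Benjamini-Hochberg adjustment over all features and a threshold of 0.05. Levels are CPM. Single genes and ratios were also compared by exact permutation of log2(CPM + 0.5) or of log2 ratios of counts. DESeq2 1.42.0 and other settings were alternatives. On simulated counts for TALE against untreated (13567 genes), 83.7% of 196 genes changed 2-fold were recovered, with 13 of 177 calls false. The simulation gave each gene the spread of the fitted trend, without spread of its own or outlying libraries. Changes smaller than 2-fold, as estimated for all 10 members, were not simulated, so this share does not give the power for them. The rule for named genes took all 10 members and, from the other iron genes, those called and the 2 highest and 2 lowest log2 fold changes with mean CPM of 10 or more. It also took the 3 genes most like TFRC and FTH1; 1 of these and 1 region sequence are not reported here. The members and lists were chosen with earlier results of these data known. Coordinates are GRCh37, from GENCODE.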

Additional observations from a re-analysis of the deposited data

How the results depend on the processing

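Of 890 alternative values for fold changes of the 10 genes and the other iron genes named, 862 kept their direction and side of the threshold, 26 reversed and 2 crossed the threshold. Without the filter on low counts, 1 of the 10 genes was called in TALE against dCas9 (FTH1), where the filter gave 0; the cause was not tested. HMOX2 in silenced cells was the other, at 0.20 as a log2 ratio of mean CPM under an exact permutation test with no adjustment. With total counts, FTL in TALE against untreated was 0.00034 and SLC11A2 in TALE against dCas9 was 0.02, a scaling that moved the median of all genes to 0.08 and 0.10 in those comparisons. With only the groups of the contrast, TFR2 in TALE against dCas9 was -0.0013. Leaving out each library in turn gave, for TALE against untreated, FTL -0.17 to 0.04, SLC11A2 -0.02 to 0.11 and SLC40A1 -0.16 to 0.0027. For dCas9 against untreated it gave TFR2 -0.00023 to 0.20, IREB2 -0.02 to 0.13 and ACO1 -0.08 to 0.08. For TALE against dCas9 it gave TFR2 -0.11 to 0.08, FTL -0.05 to 0.18, SLC40A1 -0.06 to 0.13 and FBXL5 -0.05 to 0.33, and for silenced cells FTH1 -0.09 to 0.22 and ACO1 -0.04 to 0.12. TFRC per FTH1 in TALE against untreated ran from -0.0013 to 0.42. FTH1 in TALE against dCas9 ran from -0.89 to -0.53. The number of MeDIP regions of these genes called stayed at 0 under each alternative run. Counts over all genes moved more. Without the filter 74, 89, 77 and 79 genes were called for TALE, dCas9, TALE against dCas9 and silenced, where the filter gave 3, 4, 0 and 5. DESeq2 called 13 for dCas9 and 16 for silenced, total counts 13 for silenced, and only the groups of the contrast 8 for dCas9. Without TALE replicate 3 the counts were 16, 10, 0 and 33, and without dCas9 replicate 1 they were 3, 8, 21 and 11. Over all genes tested, libraries of the same replicate number did not deviate together. Their correlation ran from -0.284 to 0.103 over 9 pairs, and 2 of 9 libraries correlated best with their own number. FTH1 was different, and rose from replicate 1 to replicate 3 in each group. With the replicate block 3, 2, 0 and 4 genes were called over all genes and 0 of the 10, and FTH1 in TALE against dCas9 was -0.72 with an edgeR adjusted p of 0.591. Its SE was 0.138 and its unadjusted edgeR p 0.000153 with the block, beside 0.197 and 0.00195 without it. An exact permutation test cannot go below 0.1 for 3 libraries against 3, or below 0.0119 for the 6 silenced against 3 untreated.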
